A study of Mus musculus with 9 samples.

Results

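The genes described here encode the subunits of the 5 complexes of oxidative phosphorylation in mouse, 99 of the 56289 genes measured. They are the protein-coding genes whose symbols mark them as subunits: mt-Nd, mt-Cytb, mt-Co and mt-Atp for those encoded in mitochondrial DNA, and Ndufa, Ndufb, Ndufc, Ndufs, Ndufv, Sdha to Sdhd, Uqcr, Cox4 to Cox8 and Atp5 for those in the nucleus. Assembly factors (12 genes) and 13 matching loci that do not code for protein were left out. Of the 99 genes, 13 are mitochondrially encoded (7 of complex I, 1 of complex III, 3 of complex IV and 2 of complex V) and 86 are nuclear (38 of complex I, 4 of complex II, 8 of complex III, 18 of complex IV and 18 of complex V). The placing follows the symbol alone. Ndufa4 is counted with complex I although its protein is now placed in complex IV, and Cyc1, a catalytic subunit of complex III, carries another symbol and is treated with the electron carriers.

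Poly-A RNA was sequenced in 9 libraries labelled RAW264.7, a macrophage-like line of BALB/c origin. The untreated group held 3 libraries, the TNF group held 3 libraries of cells given TNF-α (tumour necrosis factor alpha, an inflammatory cytokine) for 24 h, and the TNF plus WBG group held 3 libraries given Wang Bi granules (a Chinese herbal preparation used in rheumatoid arthritis) together with TNF-α for 24 h. The study set out to find genes that differ between these groups. No dose and no time for the untreated cells is in the labels, and no group received Wang Bi granules without TNF-α.

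Oxidative phosphorylation passes electrons from NADH (through complex I) and succinate (through complex II) to ubiquinone, complex III, cytochrome c and complex IV, where oxygen is reduced, and complex V uses the resulting proton gradient to make ATP. Complex II is built from nuclear subunits alone, whereas the other complexes join nuclear subunits to a few that are transcribed from mitochondrial DNA as long precursor RNAs and cut apart. Inflammatory activation of macrophages is known for a shift of energy metabolism from oxidative phosphorylation towards glycolysis.

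Values are FPKM, fragments scaled to the length of the gene model and to the size of the library, so levels of different genes can be set side by side per length. Between 12611 and 12737 genes had at least 1 FPKM in a library. The table holds no counts. The spacing of its low values would correspond to 18.9 to 26.1 M (mega) fragments per library if the smallest step is 1 fragment. The labelled cell type was not borne out by its markers: of 10 macrophage markers 1 had a mean of at least 1 FPKM (Cd68), 4 were listed at 0 in every library (Ptprc, Itgam, Adgre1 and Tyrobp), and the list summed to 1.56 to 2.76 FPKM. Of 10 fibroblast markers 8 had a mean of at least 1 FPKM, Lum was listed at 0 and the list summed to 2719 to 3014 FPKM, with Col1a1 at 791 FPKM or more. No adipocyte marker (of 4), striated muscle marker (of 4) or epithelial or endothelial marker (of 6) had a mean of 1 FPKM. The summed fibroblast level was 2719 to 2972 FPKM in untreated, 2968 to 2992 FPKM in TNF and 2806 to 3014 FPKM in TNF plus WBG libraries. In such bulk RNA, fewer cells of a type and less RNA per cell cannot be told apart.

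A gene was tested if its FPKM reached 1 in at least 3 of the 9 libraries, which kept 13026 genes: all 13 mitochondrially encoded and 78 of the 86 nuclear subunits. A gene was called, and is said below to have risen or fallen, at a Benjamini-Hochberg adjusted p under 0.05 in limma over all genes kept. Log2 differences are of FPKM plus 1, with their standard error (SE). The labels do not say that replicates are separate cultures, and a p-value here reflects the spread among the libraries and no more, which may be technical. The 3 comparisons share libraries and are not independent of each other.

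The 13 mitochondrially encoded RNAs were among the most abundant measured. Their median over the 9 libraries was 1814 FPKM, against 68.8 FPKM for the nuclear subunits tested. The highest was mt-Co1, the catalytic core of complex IV, at 6837 FPKM, which ranked 1 of all genes. Next came mt-Cytb, the cytochrome b of complex III, at 3945 FPKM, mt-Co2, which receives electrons from cytochrome c, at 3266 FPKM, and mt-Atp6, part of the proton channel of complex V, at 3019 FPKM. The third complex IV gene mt-Co3 was at 2130.2 FPKM and mt-Atp8 at 1814 FPKM. The complex I genes ran from mt-Nd1, the membrane subunit at the quinone site, at 2831 FPKM down to mt-Nd3 at 439 FPKM. In order between them were mt-Nd2 at 1600.0 FPKM, mt-Nd4 at 1560.0 FPKM, mt-Nd4l at 1233 FPKM, mt-Nd5 at 1065 FPKM and mt-Nd6 at 745 FPKM. The order is a description. Over the 9 libraries the ranges of neighbours in it overlapped, except between mt-Co1 and mt-Cytb, mt-Nd1 and mt-Co3, mt-Nd4 and mt-Nd4l, mt-Nd5 and mt-Nd6, and mt-Nd6 and mt-Nd3.

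Some of these values rest on shared bases. The labels' kit description mentions no step that marks strand, so reads of overlapping genes cannot be told apart by strand. This touches mt-Nd5 and mt-Nd6, which lie on opposite strands. Poly-A selection also bears on mt-Nd6, whose RNA is known to carry little or no poly-A tail. The closest overlap is that of mt-Atp8, a small membrane subunit of complex V with a gene of 204 bases (chrM:7766-7969, plus strand, GRCm38), of which the last 43 bases, 21.1% of the gene, are also the start of mt-Atp6. The whole gene is shown, with the shared bases in capitals.

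mt-Atp8: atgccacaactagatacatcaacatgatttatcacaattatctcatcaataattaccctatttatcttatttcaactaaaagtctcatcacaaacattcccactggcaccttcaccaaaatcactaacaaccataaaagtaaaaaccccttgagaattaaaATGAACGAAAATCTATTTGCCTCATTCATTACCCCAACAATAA

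How that stretch was divided between the genes by the authors' counting is not given in the sources used here. The levels of mt-Atp8 (1635 to 2002 FPKM) and mt-Atp6 (2710 to 3344 FPKM) should be read with that limit.

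**Figure D1:**
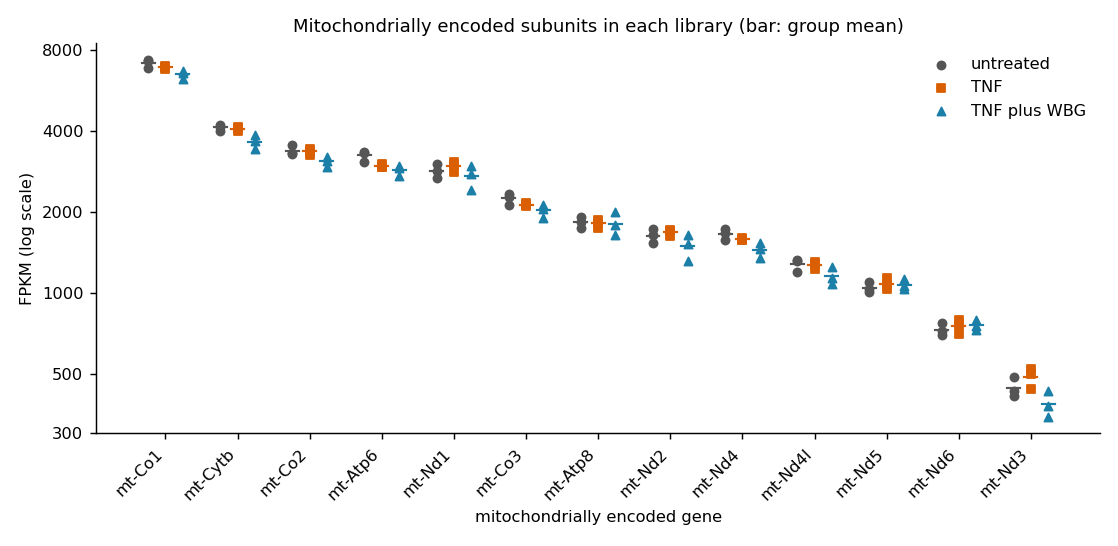
FPKM (log scale) of each of the 13 mitochondrially encoded genes, ordered by mean, with 1 point per library and a bar at each group's mean (n = 3). All TNF plus WBG points lie below all other points for mt-Cytb, mt-Co1, mt-Co2 and mt-Nd4, and they overlap the other groups for mt-Nd5, mt-Nd6 and mt-Atp8.

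Among nuclear subunits the highest level was that of Atp5b, the catalytic beta subunit of complex V, at 613 FPKM, and the lowest of those tested was Cox7a1, a heart and muscle isoform, at 1.78 FPKM. The lowest of complex I was Ndufb2, at 8.995 FPKM. The range ran from 26.3 FPKM for Sdhc to 87.9 FPKM for Sdha in complex II, and 45.2 FPKM for Uqcrc2 to 125 FPKM for Uqcr11 in complex III. In complex IV the highest was Cox6a1, at 297 FPKM, and in complex V the lowest was Atp5s, a coupling factor, at 4.21 FPKM. Sdha carries the FAD of succinate dehydrogenase and Sdhc is a membrane anchor. The median coefficient of variation over all 9 libraries was 7.61% for the nuclear and 6.56% for the mitochondrially encoded genes.

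The isoforms measured were those of most tissues. Cox4i1 had 247 to 274 FPKM, whereas its hypoxia and lung isoform Cox4i2 had at most 0.10 FPKM. Cox6a1 had 277 to 321 FPKM against at most 0.24 FPKM for the muscle isoform Cox6a2. Cox6b1 (99.1 to 114 FPKM) stood against at most 0.18 FPKM for the testis isoform Cox6b2, and Cox8a (273 to 314 FPKM) against at most 0.16 FPKM for the muscle isoform Cox8b. Cox7b2 and Cox8c, both known from testis, were listed at 0 in every library. Ndufa4 had 71.4 to 87.8 FPKM and its hypoxia-linked relative Ndufa4l2 at most 0.32 FPKM. The remaining gene that was not tested is the second gene model of Atp5o (ENSMUSG00000116933), at most 0.30 FPKM. Of the 3 genes for the identical subunit c of complex V, Atp5g2 had 273 to 302 FPKM, Atp5g3 136 to 155 FPKM and Atp5g1 64.4 to 104 FPKM.

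The comparison of TNF with untreated libraries addresses the cytokine on its own. Some nuclear subunits were called in each direction, and no mitochondrially encoded gene was called. Of 78 nuclear subunits tested 8 rose and 3 fell, beside 6.43% of all genes tested that rose and 4.21% that fell (10.6% called in all). The rises were 7 accessory subunits of complex I and Cox6a1. The falls were Sdhb of complex II and both core proteins of complex III, Uqcrc1 and Uqcrc2. The median log2 difference was 0.03 over the nuclear subunits, -0.01 over the mitochondrially encoded genes and 0.00 over all genes tested. The size of these changes was small, between 0.16 and 0.36 on the log2 scale for rises. Fibroblast markers also changed in this comparison. Of 8 tested, Col1a1, Col1a2 and Fbn1 rose, by 0.28, 0.27 and 0.20 on the log2 scale, and Postn and Pdgfrb fell, with log2 differences of -0.59 and -0.51. With TNF plus WBG against untreated Postn and Pdgfrb fell again (-0.56 and -0.54) and no marker rose, and against TNF none of the 8 was called (2 under an unadjusted p of 0.05). The part of these markers in the results on subunits was not tested.

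Complex I has 7 nuclear core subunits, which carry its flavin, its iron-sulphur clusters and part of the quinone site, and 30 accessory subunits among those tested. Of the accessory subunits 7 rose and none fell. Under an unadjusted p of 0.05 were 11 accessory subunits, of which Ndufa10 and Ndufc2 were lower with TNF (log2 differences -0.23 and -0.13). Of the core subunits none was called, none was under an unadjusted p of 0.05, and log2 differences lay between -0.11 and 0.07. The difference between core and accessory subunits was not itself tested. Ndufa1, a small membrane-spanning subunit, was at 48.9, 47.0 and 48.9 FPKM in untreated libraries, at 55.6, 67.5 and 64.0 FPKM in TNF libraries and at 46.7, 52.3 and 57.4 FPKM in TNF plus WBG libraries. All TNF libraries lay above all untreated ones, and the log2 difference was 0.36 ± 0.09 (SE, adjusted p = 0.0299, limma). Ndufs6, a zinc-binding subunit near the iron-sulphur clusters, was at 44.8, 45.2 and 39.2 FPKM in untreated and at 52.5, 51.7 and 57.5 FPKM in TNF libraries. It rose by 0.32 ± 0.07 (SE, adjusted p = 0.0223, limma), without overlap, and its exons overlap those of Mrpl36. Ndufa13, also known as GRIM-19, rose from 30.8, 32.8 and 29.4 FPKM to 37.4, 36.6 and 39.4 FPKM, with exons that overlap Tssk6. Ndufa5, a subunit of the arm that faces the matrix, rose from 21.3, 21.9 and 20.1 FPKM to 23.6, 26.1 and 26.4 FPKM. In both genes the TNF libraries stood apart from the untreated ones, with log2 differences of 0.28 ± 0.06 and 0.25 ± 0.06 (SE). The remaining rises were Ndufs5, on the side of the intermembrane space, at 0.22 ± 0.06, Ndufc1, in the membrane arm, at 0.21 ± 0.05, and Ndufa2, in the matrix arm, at 0.16 ± 0.04 (SE). Adjusted p ran from 0.0207 for Ndufa13 to 0.049 for Ndufa2 over the 7 accessory subunits. Exons of Ndufa2 overlap those of Tmco6. The largest difference of any nuclear subunit was that of Ndufa12, at 0.45 ± 0.19 (SE, adjusted p = 0.197, limma), and it rests on 1 library: TNF replicate 1 had 81.7 FPKM and the other 8 had at most 49.5 FPKM.

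Complex II showed 1 change among its 4 subunits. Sdhb, which carries the iron-sulphur clusters between FAD and quinone, was at 68.5, 64.1 and 66.6 FPKM in untreated libraries and at 53.4, 57.1 and 54.3 FPKM in TNF libraries. Every TNF library was below every untreated one. Sdhb fell by 0.27 ± 0.05 on the log2 scale (SE, adjusted p = 0.00929, limma), the smallest adjusted p of any subunit in this comparison. Its catalytic partner Sdha was at 86.8, 85.5 and 86.02 FPKM untreated and at 88.5, 89.5 and 92.1 FPKM with TNF (log2 difference 0.06, adjusted p = 0.247), so its groups did not overlap but it did not pass the test. The anchors Sdhc and Sdhd had log2 differences of -0.05 and 0.01 and overlapping groups.

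In complex III the core proteins Uqcrc1 and Uqcrc2, which face the matrix and resemble processing peptidases, fell together. Uqcrc1 was at 88.3, 85.6 and 89.2 FPKM untreated and at 80.4, 76.9 and 76.5 FPKM with TNF (log2 difference -0.17 ± 0.04, SE, adjusted p = 0.0239). Uqcrc2 was at 49.7, 49.0 and 47.0 FPKM untreated and at 41.9, 42.7 and 42.5 FPKM with TNF (log2 difference -0.19 ± 0.04, SE, adjusted p = 0.0177), and its exons overlap those of Pdzd9. Neither pair of groups overlapped. The catalytic Rieske protein gene Uqcrfs1 had a log2 difference of -0.12 (adjusted p = 0.1004) and the small subunit gene Uqcr11 one of 0.24 (adjusted p = 0.0595). Both were without overlap between the groups, and neither passed.

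In complex IV 1 of the 12 nuclear subunits tested rose. Cox6a1, the ubiquitous isoform of a regulatory subunit, was at 284, 287 and 277 FPKM untreated and at 319, 313 and 321 FPKM with TNF (log2 difference 0.17 ± 0.03, SE, adjusted p = 0.0135, limma). The TNF libraries were all above the untreated ones. Cox7a2 had the most negative value of any nuclear subunit, with 81.1, 73.1 and 69.5 FPKM untreated and 55.5, 56.9 and 68.8 FPKM with TNF, and did not pass (log2 difference -0.30, adjusted p = 0.0571). Of the 17 complex V subunits tested none was called and 4 were under an unadjusted p of 0.05. Atp5b, at 669.9, 664 and 614 FPKM untreated and at 589, 596 and 611 FPKM with TNF, had non-overlapping groups and an adjusted p of 0.129.

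**Figure D2:**
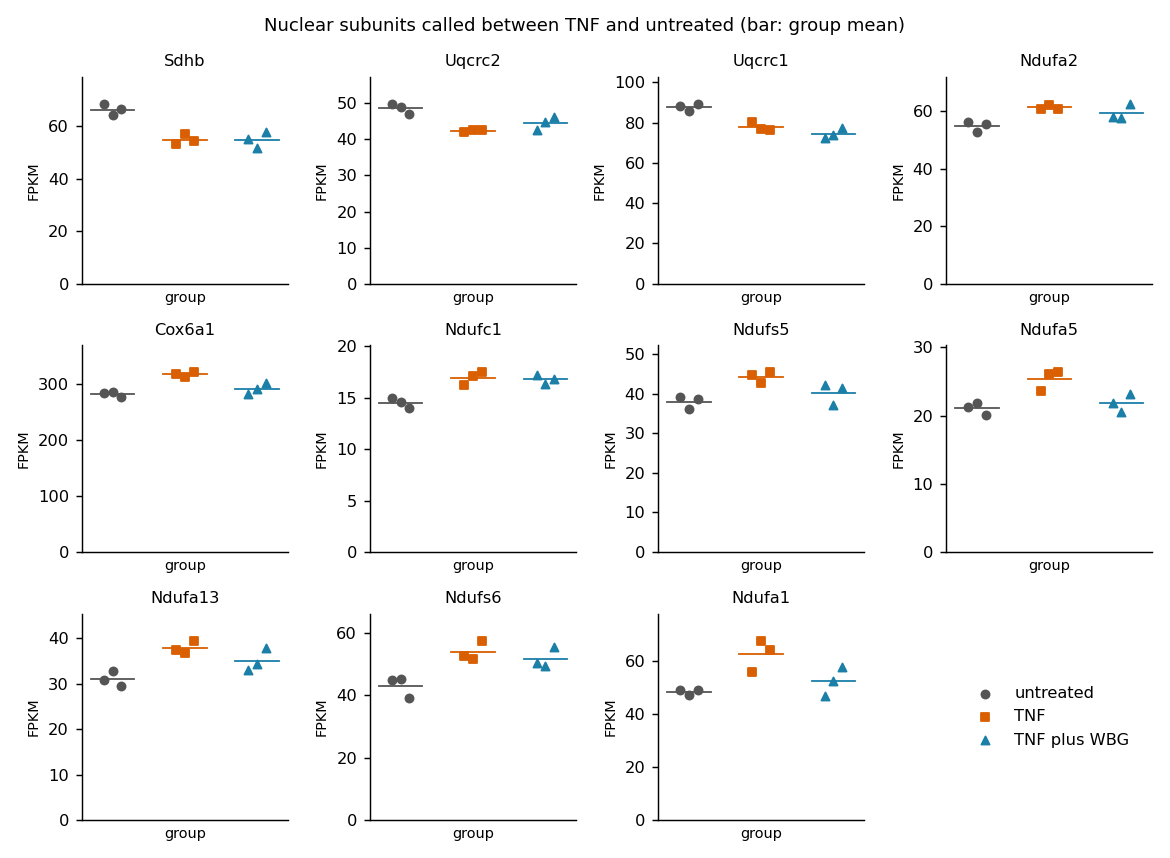
FPKM in each library of the 11 nuclear subunits called between TNF and untreated (1 panel per gene, bar at the group mean, n = 3, axes from 0). Sdhb, Uqcrc2 and Uqcrc1 lie lower with TNF and the other 8 genes lie higher, and for each gene the TNF and untreated points do not overlap.

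Groups did not overlap for 12 nuclear subunits that were higher, the 8 rises among them, and for 13 that were lower, beside 15.5% and 14.4% of all genes tested (30% in either direction). Of the mitochondrially encoded genes, mt-Atp6 alone had non-overlapping groups, at 3344, 3067 and 3302 FPKM untreated and at 3013, 2941 and 2943 FPKM with TNF, and it was the only 1 of the 13 under an unadjusted p of 0.05 (adjusted p = 0.114). The count of 8 rises depended on single libraries. It was 0 without untreated replicate 3, and 3 when TNF replicate 2 or either of untreated replicates 1 and 2 was omitted. Without TNF replicate 3 the only rise called was that of Cox7a2l, and none of the 8 was kept. The count of 3 falls was 1 without untreated replicate 1. Sdhb was called in each of the 21 alternatives. The fall of Uqcrc1 was lost without the trend, TNF replicate 2 or 3, or untreated replicate 1 or 3, and that of Uqcrc2 without any 1 of the TNF libraries or untreated replicate 1 or 2.

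Length of the gene model moved with these differences. Of 18 nuclear subunits with exons of up to 1000 bases 5 rose, none fell and the median log2 difference was 0.13, and of 30 with 1000 to 2000 bases 3 rose and the median was 0.04. Of 19 with 2000 to 4000 bases none rose, 2 fell and the median was 0.00, and of 11 longer ones 1 fell and the median was -0.06. Other protein-coding genes of up to 1000 bases (195 genes) had a median of 0.05, with 9.23% up and 1.03% down. At 1000 to 2000, 2000 to 4000 and over 4000 bases the medians of other genes were 0.02, 0.01 and -0.01. In these ranges 7.94%, 8.43% and 5.95% were up and 4.06%, 5.39% and 4.50% down. With log2 values centred within exon-length bins of all genes, 6 nuclear subunits rose and 6 fell. Of the 8 rises Ndufa2 and Ndufs5 were lost in that setting.

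**Figure D3:**
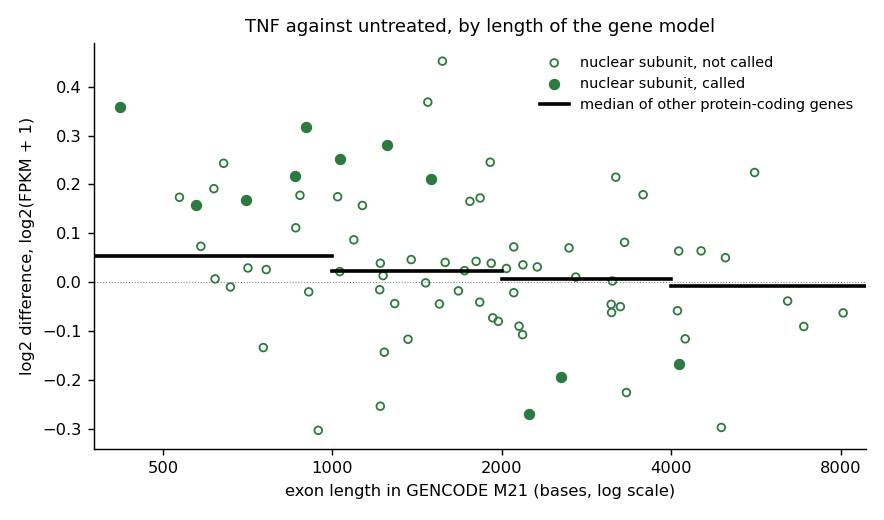
Log2 difference between TNF and untreated for each nuclear subunit tested (circles, filled where called) against exon length of its gene model in bases (log scale), with lines at the median of other protein-coding genes in 4 length ranges. The called rises lie below 2000 bases and the called falls above 2000 bases.

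Promoters are shown for 4 of the called subunits whose window held a searched motif, to place the motif relative to the start. Nuclear respiratory factor 1 (NRF1) and YY1 are regulators known for their sites in the promoters of respiratory chain genes. A window of 300 bases around the start, from 250 before to 50 after it, was read from RefSeq (GRCm38.p6) for 69 of the 86 nuclear subunits. The capitals mark the NRF1 letters GCGCATGC on either strand in the first 3 sequences (overlapping matches are joined) and the YY1 letters AAGATGGC in the last. The sequences are those of Sdhb (chr4:140961021-140961320, plus strand), Uqcrc1 (chr9:108936398-108936697, plus strand), Cox6a1 (chr5:115348909-115349208, minus strand) and Ndufs6 (chr13:73328433-73328732, minus strand), each written along the gene's own strand.

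Sdhb: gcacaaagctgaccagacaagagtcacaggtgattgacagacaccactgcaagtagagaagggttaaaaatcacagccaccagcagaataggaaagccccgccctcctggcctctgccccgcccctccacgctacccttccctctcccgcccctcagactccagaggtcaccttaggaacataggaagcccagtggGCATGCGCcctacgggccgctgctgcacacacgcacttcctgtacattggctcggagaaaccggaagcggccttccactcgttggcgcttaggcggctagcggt
Uqcrc1: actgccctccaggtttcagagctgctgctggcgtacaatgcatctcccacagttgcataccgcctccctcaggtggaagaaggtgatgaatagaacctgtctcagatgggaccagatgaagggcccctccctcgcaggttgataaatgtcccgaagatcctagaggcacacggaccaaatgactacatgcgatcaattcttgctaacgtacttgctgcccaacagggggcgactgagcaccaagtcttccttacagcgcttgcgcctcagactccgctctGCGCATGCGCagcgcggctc
Cox6a1: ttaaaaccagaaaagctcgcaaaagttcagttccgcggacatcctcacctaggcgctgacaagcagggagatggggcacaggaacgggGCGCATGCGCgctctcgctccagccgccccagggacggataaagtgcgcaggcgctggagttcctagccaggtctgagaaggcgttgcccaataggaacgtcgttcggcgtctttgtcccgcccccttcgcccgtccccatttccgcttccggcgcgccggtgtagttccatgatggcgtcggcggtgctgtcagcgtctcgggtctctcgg
Ndufs6: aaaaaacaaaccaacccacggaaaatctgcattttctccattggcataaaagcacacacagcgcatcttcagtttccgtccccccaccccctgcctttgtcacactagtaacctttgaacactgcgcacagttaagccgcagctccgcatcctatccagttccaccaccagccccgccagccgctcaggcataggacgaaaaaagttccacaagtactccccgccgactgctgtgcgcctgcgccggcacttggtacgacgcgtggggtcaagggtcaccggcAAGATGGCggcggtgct

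The NRF1 letters were in 13.5% of 74 promoters of nuclear subunits, against 2.71% of all promoters in the table and 5.47% of those of protein-coding genes tested. The YY1 letters were in 13.5%, 2.75% and 4.61%, and the GABPA letters CCGGAAGT in 6.76%, 3.89% and 8.55%. Of 8 promoters of 7 genes that rose with TNF, 1 held the NRF1 letters (Cox6a1), 2 the YY1 letters and 0 the GABPA letters. Of 2 promoters of genes that fell, 2 held the NRF1 letters (Sdhb and Uqcrc1) and 0 the others. Promoters of Ndufa1, Ndufs5, Ndufa13 and Ndufa5 held none of these letters, and none was matched for Ndufa2 and Uqcrc2. A match describes the letters and not a bound site.

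The comparison of TNF plus WBG with TNF addresses the granules on top of the cytokine, and no subunit was called. Of all genes tested 0.0998% were called, 0.0691% up and 0.0307% down. Among the 91 subunits tested 16 were under an unadjusted p of 0.05, of which 6 were mitochondrially encoded and 10 nuclear, beside 1180 of all 13026 genes, and no subunit was called in any of the 21 alternatives. Of the 13 mitochondrially encoded genes 12 had a lower mean with the granules. The median log2 difference was -0.12 over these 13, -0.04 over the nuclear subunits and 0.00 over all genes tested.

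None of these 13 genes passed. The most negative difference was that of mt-Nd3, a complex I subunit near the quinone site, at 438, 498 and 523 FPKM with TNF and at 379, 346 and 433 FPKM with TNF plus WBG (log2 difference -0.33 ± 0.10, SE, adjusted p = 0.423, limma). mt-Cytb was at 3986, 4148 and 4080 FPKM with TNF and at 3661, 3426 and 3842 FPKM with TNF plus WBG (log2 difference -0.16 ± 0.04, SE, adjusted p = 0.411). The groups did not overlap for these genes, nor for mt-Nd4, mt-Co1 and mt-Co2. That is 5 of 13, all lower, beside 7.72% of all genes tested (14.7% in either direction). mt-Co1 was at 6917, 6962 and 6814 FPKM with TNF and at 6551, 6254 and 6656 FPKM with the granules. mt-Nd6 alone had a higher mean with the granules, with means of 751 ± 47.7 and 756 ± 33.7 FPKM (SD, n = 3). Its log2 difference was 0.01, and those of mt-Nd5 and mt-Atp8 were as close to 0, at -0.02 and -0.01.

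A single library carried much of this. TNF plus WBG replicate 2 had the lowest value of all 9 libraries for 11 of the 13 genes, and untreated replicate 3 for the other 2. Without TNF plus WBG replicate 2 the median log2 difference of the 13 genes was -0.063. The 13 RNAs are cut from shared precursors, so they are not 13 independent measurements.

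**Figure D4:**
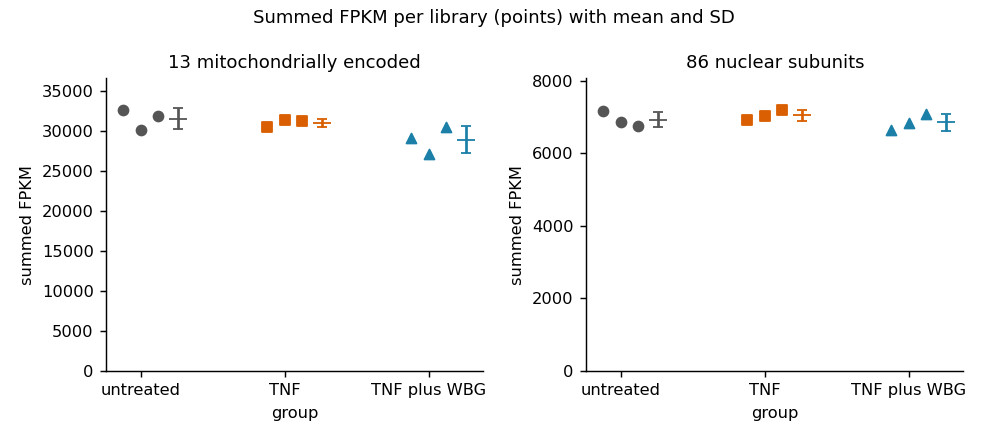
Summed FPKM per library of the 13 mitochondrially encoded genes (left) and of the 86 nuclear subunits (right), with each group's mean and SD (n = 3) beside the points and axes from 0. The lowest mitochondrial sum is 27128 FPKM in TNF plus WBG replicate 2, and the nuclear sums lie between 6636 and 7196 FPKM in all libraries.

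Summed over the 13 genes, the untreated libraries held 32643, 30157 and 31822 FPKM, the TNF libraries 30444, 31371 and 31220 FPKM and the TNF plus WBG libraries 29087, 27128 and 30486 FPKM. The TNF plus WBG libraries overlapped both other groups. The mitochondrially encoded share of all FPKM was 7.32% ± 0.24 in untreated, 7.15% ± 0.06 in TNF and 6.70% ± 0.34 in TNF plus WBG libraries, and the nuclear share was 1.61% ± 0.03, 1.62% ± 0.02 and 1.59% ± 0.04 (SD, n = 3). The ratio of the sums was 4.56 ± 0.15 in untreated, 4.41 ± 0.07 in TNF and 4.22 ± 0.22 in TNF plus WBG libraries (SD, n = 3). TNF plus WBG libraries (3.98 to 4.38) lay below all untreated ones (4.41 to 4.71) in this ratio and overlapped the TNF libraries (4.34 to 4.47). No test was made of the ratio.

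Among nuclear subunits 27 were higher and 51 lower with the granules than with TNF alone. The smallest p was that of Ndufa4, at 85.1, 84.0 and 86.1 FPKM with TNF and at 73.3, 71.4 and 75.2 FPKM with TNF plus WBG (log2 difference -0.21 ± 0.05, SE, adjusted p = 0.312, limma). Its groups were well apart and it did not pass. The largest value in the other direction was that of Cox7a2, at 77.2, 73.1 and 72.3 FPKM with TNF plus WBG (log2 difference 0.30, adjusted p = 0.423). Groups did not overlap for 3 nuclear subunits that were higher (Ndufa10, Uqcrh and Cox7a2) and 7 that were lower, beside 7.03% and 7.72% of all genes. The 8 rises and 3 falls with TNF were called with the same TNF libraries that are the reference here. Differences back towards untreated can follow from that choice, and a return was not tested. Of the 8 subunits that rose with TNF, Ndufa5, Ndufs5 and Cox6a1 had non-overlapping groups here, all lower with the granules. Cox6a1 was at 282, 291 and 303 FPKM with TNF plus WBG, Ndufa5 at 21.8, 20.5 and 23.1 FPKM and Ndufs5 at 42.1, 37.1 and 41.4 FPKM. These log2 differences were -0.12, -0.21 and -0.14, with adjusted p of 0.411, 0.436 and 0.529 (limma). Of the 3 that fell with TNF, Sdhb was at 55.2, 51.5 and 57.7 FPKM with TNF plus WBG, which overlapped the TNF libraries and lay below every untreated library (log2 difference to TNF 0.00 ± 0.05, SE).

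TNF plus WBG against untreated gives the joint difference of both agents. Of the 13 mitochondrially encoded genes 3 fell and none rose, and of 78 nuclear subunits 1 rose and 2 fell, beside 5.52% of all genes tested that rose and 3.67% that fell (9.19% called in all). The mitochondrially encoded genes that fell were mt-Nd4, mt-Atp6 and mt-Cytb, of complexes I, V and III. The nuclear genes that fell were again Sdhb and Uqcrc1, and the gene that rose was Ndufc1. The median log2 difference was -0.14 over the mitochondrially encoded genes, with 11 of 13 lower, -0.01 over the nuclear subunits and 0.00 over all genes.

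The 3 mitochondrially encoded falls were alike in size. mt-Nd4, a proton-pumping subunit of complex I, was at 1728, 1570 and 1665 FPKM untreated and at 1460, 1348 and 1530 FPKM with TNF plus WBG (log2 difference -0.19 ± 0.05, SE, adjusted p = 0.047, limma). mt-Atp6 was at 2904, 2710 and 2949 FPKM with TNF plus WBG (log2 difference to untreated -0.18 ± 0.04, SE, adjusted p = 0.0334). mt-Cytb was at 4144, 4003 and 4212 FPKM untreated, which all lay above the TNF plus WBG values given before (log2 difference -0.18 ± 0.04, SE, adjusted p = 0.0357). Groups did not overlap for these 3, mt-Co1 and mt-Co2, 5 of 13, all lower, beside 13.6% of all genes (28.1% in either direction). mt-Co1, at 7250, 6817 and 7316 FPKM untreated, missed the threshold (log2 difference -0.14, adjusted p = 0.0547). The exons of mt-Nd4 overlap those of mt-Nd4l by 7 bases, and those of mt-Atp6 overlap mt-Atp8 and mt-Co3. The 3 calls depended on the setting: none of the 13 was called without any filter, without the trend of the spread, in a fit of the 6 libraries compared, or without any 1 of TNF replicates 1, 2 and 3, TNF plus WBG replicates 1 and 2, and untreated replicates 1 and 3. TNF libraries do not enter the log2 differences of this comparison, so leaving 1 out alters only the estimated spread, the filter and the adjusted p. Without TNF plus WBG replicate 3 the same 3 genes were called. Without untreated replicate 2 the 3 calls were mt-Nd4, mt-Atp6 and mt-Co1, and that of mt-Cytb was lost.

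The nuclear falls did not depend on a setting in this way. Sdhb fell by 0.27 ± 0.05 on the log2 scale (SE, adjusted p = 0.00944) and Uqcrc1, at 72.4, 73.8 and 77.2 FPKM with TNF plus WBG, by 0.23 ± 0.04 (SE, adjusted p = 0.00524, limma), and both calls were kept in each of 21 alternatives. Uqcrc2 was at 42.6, 44.8 and 46.2 FPKM with TNF plus WBG, below the untreated values, and did not pass (log2 difference -0.12, adjusted p = 0.107). Ndufc1 rose from 14.9, 14.5 and 14.0 FPKM untreated to 17.2, 16.3 and 16.8 FPKM (log2 difference 0.20 ± 0.05, SE, adjusted p = 0.0317). This call was lost without TNF replicate 2, without untreated replicate 2 or 3, and without any 1 of the TNF plus WBG libraries. It was also lost with the replicate block and in a fit of the 6 libraries compared. Groups did not overlap for 8 nuclear subunits that were higher and 7 that were lower, beside 14.5% and 13.6% of all genes. The nuclear subunit with the largest value was Cox7a2l, a factor that joins complexes III and IV, at 0.38 ± 0.16 (SE, adjusted p = 0.202), and the one with the most negative was Atp5g1 at -0.28 (adjusted p = 0.257).

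**Figure D5:**
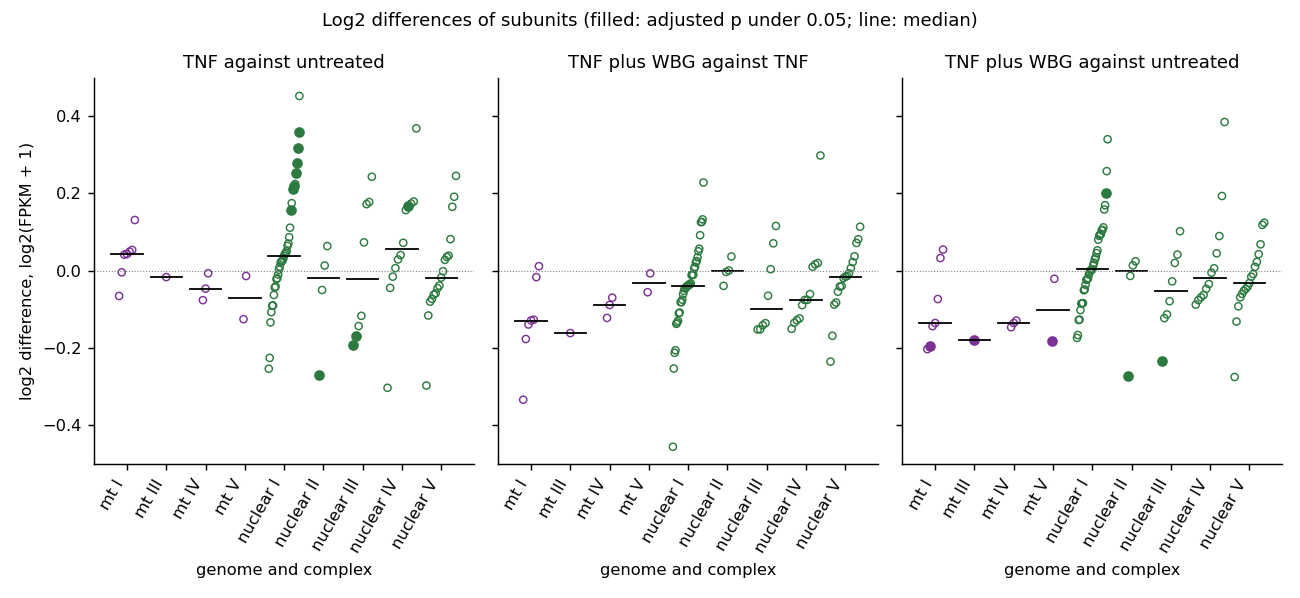
Log2 difference of each subunit tested in the 3 comparisons, by genome and complex, with a line at the median and filled points at an adjusted p under 0.05. Filled points are 7 complex I rises, 1 complex IV rise and 3 falls in complexes II and III with TNF, none for TNF plus WBG against TNF, and 3 mitochondrially encoded falls, 2 nuclear falls and 1 rise for TNF plus WBG against untreated.

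Cox7a2l values fell into separate levels, with treated libraries in both and untreated libraries in the lower one. It was at 95.1 to 103 FPKM in 5 libraries (the 3 untreated, TNF replicate 3 and TNF plus WBG replicate 3) and at 139 to 144 FPKM in the other 4. With Ndufa12 it was 1 of 2 subunits whose sorted values had a gap of at least 0.4 on the log2 scale. Such gaps were in 2.20% of the 91 subunits and in 6.50% of all genes with a mean of at least 5 FPKM.

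Genes that serve the respiratory chain were read from the same fit, over lists made for this work. Their counts stand beside the same shares of all genes as the subunits: with TNF 6.43% rose and 4.21% fell, and with TNF plus WBG against untreated 5.52% rose and 3.67% fell. Of 48 assembly factors tested 1 rose with TNF, Cmc2, a complex IV biogenesis factor (log2 difference 0.41 ± 0.09, SE, adjusted p = 0.0234, limma), and none fell. Of 31 genes of mitochondrial DNA transcription and RNA processing 2 fell with TNF and none rose. They were Hsd17b10, a dehydrogenase that is also part of mitochondrial RNase P, and Lrpprc, which stabilises mitochondrial messenger RNAs. Hsd17b10 had means of 56.1 ± 1.30 FPKM untreated, 47.3 ± 3.95 FPKM with TNF and 41.9 ± 2.42 FPKM with TNF plus WBG (SD, n = 3), with log2 differences to untreated of -0.25 and -0.41 (adjusted p = 0.0465 and 0.00451). Lrpprc had 21.6 ± 0.32, 19.0 ± 0.43 and 20.6 ± 0.47 FPKM (SD, n = 3), and fell by 0.18 on the log2 scale with TNF (adjusted p = 0.0243). The mitochondrial transcription factor gene Tfam and the RNA polymerase gene Polrmt, named after their values were seen, had log2 differences between -0.10 and 0.04 in all 3 comparisons.

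Of 23 genes of the citric acid cycle and pyruvate dehydrogenase 1 fell with TNF, Dlat (log2 difference -0.15, adjusted p = 0.0417), and 18 of 23 were lower in value, beside 6511 of all 13026 genes. With TNF plus WBG against untreated none of the 23 was called and 19 were lower in value, beside 6620 of all genes. There 9 were under an unadjusted p of 0.05, beside 2976 of all genes. Groups did not overlap for 9 that were lower and 2 that were higher, beside 13.6% and 14.5% of all genes. Of 8 biogenesis regulators tested none was called in any comparison and 1, 0 and 2 were under an unadjusted p of 0.05 with TNF, with TNF plus WBG against TNF and with TNF plus WBG against untreated. Of 25 electron carriers and related genes none was called with TNF (7 under an unadjusted p of 0.05) and 1 fell with TNF plus WBG against untreated, the uncoupling protein gene Ucp2 (log2 difference -0.29, adjusted p = 0.0357). Cyc1 had means of 63.5 ± 1.98, 59.2 ± 2.29 and 58.2 ± 2.16 FPKM in untreated, TNF and TNF plus WBG libraries (SD, n = 3) and was not called. Of 78 mitochondrial ribosomal protein genes Mrpl38 rose with TNF (0.29, adjusted p = 0.0231), and with TNF plus WBG against untreated 1 rose (Mrps14, 0.28) and 3 fell, led by Mrps31 at -0.40 and Mrpl41 at -0.34. For TNF plus WBG against TNF no gene of these 6 lists was called, with 0 to 5 genes per list under an unadjusted p of 0.05. Of the calls named from these lists, that of Hsd17b10 in TNF plus WBG against untreated was kept in each of 21 alternatives, and each other was lost on leaving out at least 1 library.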

How the data were processed

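RNA of 9 libraries (3 untreated, 3 TNF, 3 TNF plus WBG) was measured by paired-end poly-A sequencing with a TruSeq kit on an Illumina NovaSeq, per the labels' protocols. The deposited table gives FPKM per Ensembl gene and library, made by the authors. Not given in the sources used here are the aligner, the quantifier, the gene annotation and the build. FPKM holds no counts, so no count test and no counting interval was used. The inferred depth (18.9 to 26.1 M fragments) is a reading of the spacing of low values. It was picked by a scan of depths from 12 to 30 M on these same values. At the depth picked, 25.0 to 29.0% of the values lay within 0.02 of a whole step, and most did not. By chance 4% would lie there at a depth fixed beforehand. That figure does not allow for the scan, so the comparison cannot show that the inferred depth is right.

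Symbols came from GENCODE M21 (55144 of 56289 identifiers matched), as did exon lengths and overlaps. Genes with FPKM of at least 1 in at least 3 libraries were kept, and log2(FPKM + 1) entered limma 3.58.1 under R 4.3.3 (trend option on, 1 fit of the 9 libraries by group, no covariate). P-values are two-sided, and the Benjamini-Hochberg adjusted p was taken over all 13026 genes kept. The steps were tested on simulated data. FPKM are relative to each library's total, so a change in a few very abundant genes moves all others.

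The members, gene lists, markers and the rule for named genes were chosen with earlier results of these data known. Named were all mitochondrially encoded genes, every called nuclear subunit, the highest, lowest and most changed subunits, isoform groups, subunits not tested, and up to 2 called genes per direction of each neighbouring list. Other genes named were chosen after their values were seen. One subunit that this rule names is not reported here. Alternatives were pseudocounts of 0.1 and 5, no filter, a filter at a mean of 5 FPKM, scaling by median ratios, quantile normalization, a total without mitochondrial DNA genes, only the 6 libraries compared, no trend, robust limma, a replicate block and each library left out in turn, with centring within 20 exon-length bins added after the data were seen. No sample was left out. Tables were made with pandas 2.3.3 and numpy 2.4.6, and figures with matplotlib 3.10.9, in Python 3.11.15.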

Additional observations from a re-analysis of the deposited data

How the results depend on the processing

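No subunit called in a comparison changed direction in any alternative, though calls were often lost and mt-Cytb stood at 0 after quantile normalization. Rises of nuclear subunits with TNF numbered 8, and 3 without a filter, 5 without the trend, 4 after quantile normalization, 5 with the replicate block and 0 to 8 with 1 library left out. Falls with TNF numbered 3, and 6 after length-bin centring, 7 after quantile normalization, 5 with a total without mitochondrial DNA genes and 1 to 4 with 1 library left out. All genes called numbered 1386 for TNF against untreated and 919 to 1296 with 1 library left out. They numbered 13 for TNF plus WBG against TNF, and 7 in the 6 libraries compared, 8 with the replicate block and 8 to 14 with 1 library left out. For TNF plus WBG against untreated they numbered 1197, and 821 to 1115 with 1 library left out.

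The falls of mitochondrially encoded genes in TNF plus WBG against untreated numbered 3, and 0 without a filter, without the trend and in the 6 libraries compared, 1 after quantile normalization, 5 after length-bin centring and with a total without mitochondrial DNA genes, and 0 to 3 with 1 library left out. Their median log2 difference was -0.14 there, -0.065 after quantile normalization (which sets the highest ranks of all libraries equal) and -0.18 to -0.10 with 1 library left out, and against TNF it was -0.15 to -0.063. The single nuclear rise against untreated became 0 with the replicate block and 0 to 2 with 1 library left out. Without the highest member of each genome, the ratio of the sums was 3.89 in untreated, 3.74 in TNF and 3.58 in TNF plus WBG libraries. Where no construction is named, the cause was not tested. Replicate numbers gave no sign of pairing. Correlations of deviations from the group mean were -0.07 to 0.11 for same-numbered libraries and -0.10 to 0.09 for differently numbered ones. Such a check cannot exclude that the numbers are pairs. With 3 libraries per group, and no counts, small differences may go undetected.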
